A study of Mus musculus with 6 samples.

Results

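Lipid handling by macrophages of the repaired rotator cuff, at the insertion of tendon into bone (enthesis), was described with 10 genes of the 32285 listed in the deposited matrices: Apoe, Abca1, Abcg1, Lpl, Fabp4, Fabp5, Cd36, Plin2, Gpnmb and Lipa. They were found by symbol, and their unique molecular identifiers (UMIs) were summed per library and cell type. All 10 were measured in all 6 libraries. Cells were taken 7 days post injury (dpi) and repair, from adult wild-type C57BL/6 controls (3 libraries) and from Nlrp3-/- mice (3 libraries), which lack the sensor protein of the NLRP3 inflammasome. Entheses were pooled, without a statement of whether this was done for each library, and the labels give neither the number nor the sex of the mice. Both genotypes had been injured and repaired, and no uninjured tissue was analysed here, so every level below is that of injured and repaired tissue. The labels do not say whether the 3 libraries of a genotype came from separate pools of mice, and p-values measure only the spread between these libraries.

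Macrophages that clear dying cells take in membrane lipid and cholesterol. Fatty acids and modified lipoproteins enter through receptors such as CD36 or are freed outside the cell by lipoprotein lipase, and engulfed esters are split in the lysosome by lysosomal acid lipase. Fatty acid-binding proteins carry the products through the cytoplasm, droplets coated by perilipin-2 store the surplus, and ABCA1 and ABCG1 hand cholesterol to apolipoproteins such as APOE. Cells that hold much lipid are known for raised APOE, FABP5 and GPNMB. Several of these genes are known targets of the nuclear receptors LXR and PPARγ.

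On mouse build GRCm38 (GENCODE M21), the efflux genes lie at chr7:19696109-19699188 on the minus strand (Apoe), chr4:53030787-53159895, minus (Abca1) and chr17:31057675-31117988, plus (Abcg1). Uptake genes lie at chr8:68880491-68907448, plus (Lpl) and chr5:17781690-17888801, minus (Cd36). Both carriers lie on chromosome 3, at chr3:10204088-10208576, minus (Fabp4) and chr3:10012548-10016607, plus (Fabp5). Plin2 lies at chr4:86648386-86670060, minus, Gpnmb at chr6:49036546-49070929, plus, and Lipa at chr19:34492318-34527474, minus. Each is protein-coding, and its identifier in the matrices equalled that of the annotation. The 250 bases upstream of the transcript start are shown for 4 members whose mean levels were highest in the same one of the 6 macrophage subsets tested, so that their sequences can be read side by side. They are from RefSeq (GRCm38.p6), written 5′ to 3′ on the strand of the gene, and capitals mark CACGTG (the E-box bound by the lysosomal regulators TFEB and MITF) and TATAAA. The windows are chr7:19699189-19699438 for Apoe, chr4:53159896-53160145 for Abca1, chr6:49036268-49036517 for Gpnmb and chr19:34527475-34527724 for Lipa, and their sequences are
Apoe: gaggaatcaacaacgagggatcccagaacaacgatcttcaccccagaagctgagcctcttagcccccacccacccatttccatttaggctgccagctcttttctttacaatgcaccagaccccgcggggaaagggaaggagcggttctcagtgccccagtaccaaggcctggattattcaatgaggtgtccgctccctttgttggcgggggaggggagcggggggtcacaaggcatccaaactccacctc
Abca1: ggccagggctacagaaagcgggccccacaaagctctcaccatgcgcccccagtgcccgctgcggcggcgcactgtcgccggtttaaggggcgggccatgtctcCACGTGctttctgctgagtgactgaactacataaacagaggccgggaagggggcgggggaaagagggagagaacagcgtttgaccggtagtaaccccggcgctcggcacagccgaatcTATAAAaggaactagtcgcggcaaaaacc
Gpnmb: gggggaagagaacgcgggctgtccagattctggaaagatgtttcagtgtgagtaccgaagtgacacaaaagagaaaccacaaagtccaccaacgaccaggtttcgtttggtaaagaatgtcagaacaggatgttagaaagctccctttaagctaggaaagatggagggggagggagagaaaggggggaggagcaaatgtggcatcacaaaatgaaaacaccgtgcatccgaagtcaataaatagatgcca
Lipa: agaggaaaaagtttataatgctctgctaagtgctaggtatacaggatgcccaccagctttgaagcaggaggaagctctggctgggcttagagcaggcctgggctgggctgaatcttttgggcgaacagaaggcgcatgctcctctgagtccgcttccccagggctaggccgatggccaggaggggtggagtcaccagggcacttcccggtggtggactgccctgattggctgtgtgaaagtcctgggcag
Of the 10 members, 6 were matched in the RefSeq promoter table (Abcg1, Lpl, Fabp4 and Fabp5 were not), with 3 windows for Apoe. CACGTG, read on both strands, stood in 1 of the 8 windows, that of Abca1 (first base at -147), and in 6.02% of 32851 windows of all genes. TATAAA stood in 3 of the 8 (Abca1 at -29, a second Apoe start at -96, and Lipa on the other strand) and in 12.4% of all windows. The AP-1 motif TGANTCA (6.75% of windows), the direct repeats bound by PPAR (0.0335%) and by LXR (0.0152%), each searched on both strands, were in none of the 8 member windows. These are matches of letters and not measured binding.

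Each library held between 97042713 and 134901999 UMIs, and 70514 cells entered the comparisons, with median depths of 3131 to 6705 UMIs per library. Nlrp3 had 7892, 16159 and 11118 UMIs in the wild-type libraries and 0 UMIs in each Nlrp3-/- library. Xist was high in the Nlrp3-/- libraries (50998 to 87297 UMIs, against 2 to 10) and the Y-linked Ddx3y in the wild-type libraries (3323 to 4841, against 0). By the paper's methods, wild-type and Nlrp3-/- mice came from different suppliers. Genotype therefore cannot be told apart from sex or from the source of the mice here. In Nlrp3-/- replicate 1, 48.0% of cells lay in shallow clusters found almost only there and were set aside. Without wild-type replicate 3, more genes passed between the genotypes in every cell type and subset tested but neutrophils, as given beside the results it touched. Libraries shared 507 cell barcodes, carried by 1.44% of cells. Macrophages numbered 3696, 5093 and 2214 cells in the wild-type libraries and 3849, 2265 and 3909 in the Nlrp3-/- libraries, and their 8 markers summed to 17630 to 18110 and 19270 to 23210 CPM (UMIs per 1000000 in the summed library), none at 0. Of the 21026 macrophages, 73.5% fell into 7 named subsets. Clusters and their names were made without the members and without the 124 other pathway genes. Among the unnamed clusters, 1 of 1499 cells (60.0% from Nlrp3-/- replicate 1, median 977 UMIs) was led by neutrophil genes. With the named subsets only, a setting chosen after seeing the data, the genotype comparison in macrophages again called no member.

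In these wounds, macrophages carried the highest mean level of 7 members among 11 cell types, each with 20 or more cells per library (Apoe, Abca1, Abcg1, Fabp5, Plin2, Gpnmb and Lipa), while Fabp4 and Cd36 were highest in endothelial cells and Lpl in pericytes and smooth muscle cells. Levels are CPM of the summed UMIs, and they are compared between cell types for each gene, not between genes. The tests below are edgeR quasi-likelihood tests with the library as a block, with adjusted p (Benjamini-Hochberg over all genes tested) below 0.05 as the threshold. Their log2 fold changes rest on TMM scaling, against which a plain CPM ratio of macrophages over neutrophils is 0.84 higher on the log2 scale and that over endothelial cells is 0.31 lower. Against neutrophils, 10 of 10 members were higher in macrophages (40.6% of all genes tested were), with a median log2 fold change of 3.15 against 0.04 over all genes. Against mesenchymal cells, 9 were higher (37.6% of all genes) and 1 was lower (43.1%), with a median of 3.23 against -0.08. Against endothelial cells, 8 were higher (38.2%) and 2 were lower (36.7%), with a median of 1.36 against 0.02. Against conventional dendritic cells, 10 of 10 were higher (26.1%), with a median of 2.60 against 0.06. Lpl, Cd36 and Gpnmb did not pass the filter on low counts in the genotype fit of dendritic cells, where 7 members were tested. Gpnmb did not in that of endothelial cells, where 9 were. These genes entered those comparisons only through macrophages, which fixed their direction in advance. The members were chosen with earlier results of these data known. These counts, and those between macrophage subsets below, therefore describe the members and are no test of enrichment.

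**Figure D1:**
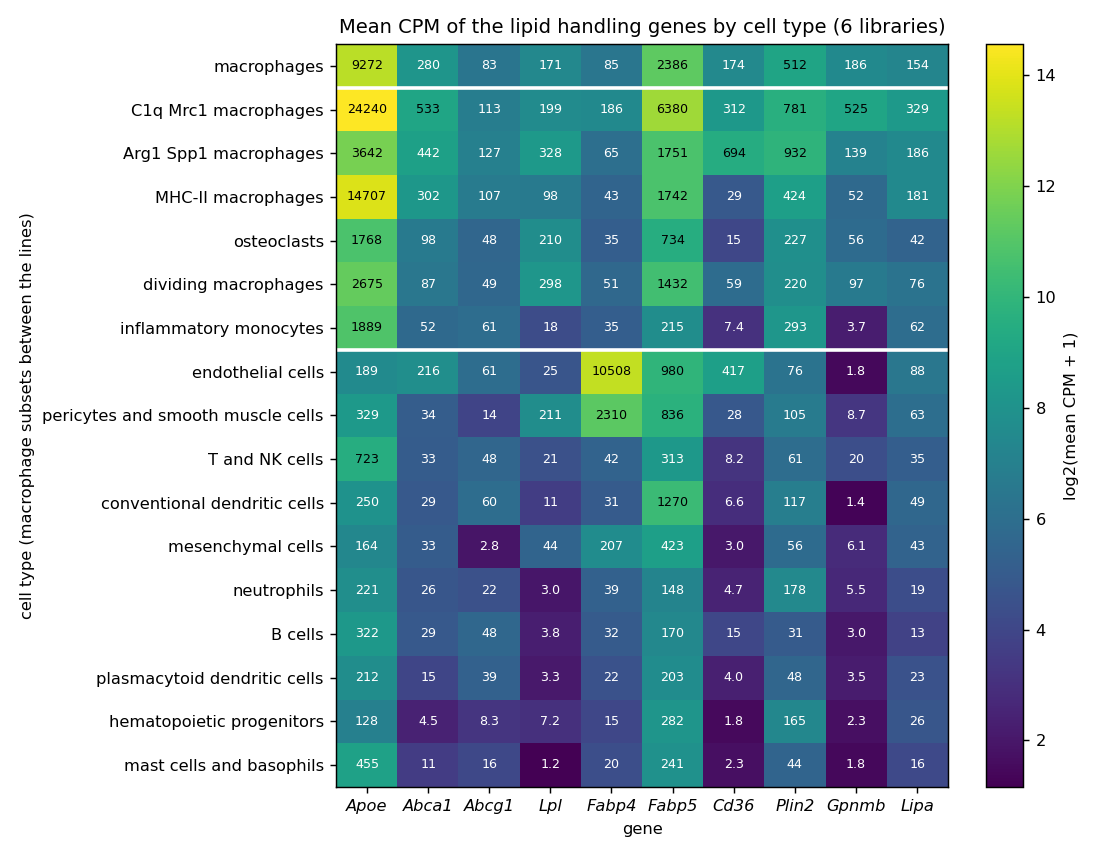
Mean CPM over 6 libraries of each lipid handling gene (x axis) in each cell type and macrophage subset (y axis, subsets between the white lines), with the colour on a log2(mean CPM + 1) scale and the mean CPM written in each cell. Among the rows shown, Apoe is highest in C1q Mrc1 macrophages (24240 CPM) and Fabp4 in endothelial cells (10508 CPM).

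Of the efflux genes, Apoe, the apolipoprotein that accepts cholesterol, set macrophages apart from the rest. It stood at 7516 to 12742 CPM in the 6 libraries (9272 ± 1987, mean ± SD, n = 6), and no library of the 10 other types passed 1531 CPM. Muscle cells, with enough cells in only 4 libraries, ranged from 206 to 4137 CPM with a median of 1990. Their muscle markers summed to a mean of 1288 CPM, beside 953.3 for Schwann cell, 442.7 for adipocyte and 8380 for mesenchymal markers. Their Apoe level may thus be that of a mixed type, which was not tested. T and NK cells came next at 723 ± 488 CPM, and from there down neighbouring types overlapped. The macrophage markers summed to a mean of 1409 CPM (560.1 to 2521) in T and NK cells, against 19650 CPM in macrophages. The part of macrophage RNA in the T and NK cell levels was not tested. Apoe was also abundant in barcodes with at most 100 UMIs, which hold RNA free in the suspension (1995 to 5958 CPM). By the hemoglobin counts, free RNA made up 1.93% to 4.0% of macrophage UMIs, which would give 103 of the 9272 CPM of Apoe on average. In mesenchymal cells it would give 56.1 of 164 CPM. After thinning every cell to 1000 UMIs, 70.3% of macrophages held an Apoe UMI and 18.5% of B cells, which are not known to express it, did (85.5% and 32.5% unthinned, with median depths of 3728 to 6006 and 1540 to 3380 UMIs per library). Thinning left out 1416 macrophages and 277 B cells that were shallower.

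The transporter Abca1 was at 165 to 409 CPM in macrophages (280 ± 92.1) and overlapped with endothelial cells (216 ± 54.7), with pericytes and smooth muscle cells next at 33.6 ± 27.6 CPM. Within libraries the difference from endothelial cells passed the test, with a log2 fold change of 0.66 (SE 0.08, adjusted p = 1.12e-05). Abcg1, which exports cholesterol to high-density lipoprotein, was spread over several types. Macrophages had 83.3 ± 11.4 CPM, endothelial cells 61.0 ± 13.7, conventional dendritic cells 60.4 ± 12.7 and B cells 48.0 ± 17.4, all neighbours overlapping. Mesenchymal cells were the lowest of the 11 types at 2.75 ± 1.65 CPM, a log2 difference of 5.13 (SE 0.18, adjusted p = 2.01e-08).

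Among the uptake genes, Lpl, the secreted enzyme that frees fatty acids from triglyceride-rich lipoproteins, was at 171 ± 55.6 CPM in macrophages and 211 ± 89.6 CPM in pericytes and smooth muscle cells, with overlapping ranges. Mesenchymal cells as a class had 44.5 ± 16.6 CPM, while their Pi16 Dpp4 fibroblasts, with at least 20 cells in 5 libraries, ranged from 137 to 839 CPM with a median of 592. Cd36, the receptor for long-chain fatty acids and oxidized lipoprotein, was at 129 to 220 CPM in macrophages and 306 to 734 CPM in endothelial cells, without overlap. The log2 fold change was -0.92 (SE 0.11, adjusted p = 1.48e-05). Every other type lay below both, the highest of them pericytes and smooth muscle cells at 28.2 ± 21.7 CPM.

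The cytoplasmic carriers were highest in different cell types. Fabp4, known from adipocytes and capillary endothelium, was at 8127 to 15957 CPM in endothelial cells, 1098 to 4450 in pericytes and smooth muscle cells and 54.0 to 117 in macrophages, a log2 fold change of -6.64 against endothelial cells (SE 0.11, adjusted p = 3.47e-12). Free RNA by the hemoglobin counts would give 30.9 of the mean 84.8 CPM in macrophages and 30.9 of 39.0 CPM in neutrophils. The difference between those types (log2 0.43, SE 0.18, adjusted p = 0.0437) did not pass without wild-type replicate 1 (0.36, adjusted p = 0.108), wild-type replicate 3 (0.27, 0.117) or Nlrp3-/- replicate 1 (0.47, 0.0548). Its thinned share of cells was 93.5% in endothelial cells, 6.12% in macrophages and 4.16% in B cells. Fabp5, the carrier first known from skin, was highest in macrophages at 1830 to 3423 CPM (2386 ± 602), overlapped with conventional dendritic cells (1270 ± 385) and was at 980 ± 294 CPM in endothelial cells. The macrophage level exceeded each of these within libraries (log2 0.86, SE 0.06, and 1.62, SE 0.09).

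Plin2, the droplet coat protein, was at 358 to 638 CPM in macrophages (512 ± 116), above every library of every other type. Neutrophils (178 ± 92.7) and hematopoietic progenitors (165 ± 46.1) followed and overlapped. Lipa, the lysosomal lipase, was at 117 to 192 CPM in macrophages (154 ± 27.2), above endothelial cells (88.1 ± 7.06), which in turn exceeded pericytes and smooth muscle cells (62.6 ± 7.41) in every library. Gpnmb, a membrane glycoprotein of lipid-laden and phagocytic macrophages, was at 110 to 265 CPM (186 ± 56.7). No library of another type passed 53.7 CPM. T and NK cells, with the macrophage markers given above, came next at 19.8 ± 22.1 CPM. Against endothelial cells the log2 fold change of Gpnmb was 7.06 (SE 0.30, adjusted p = 2.22e-09), a direction fixed by the filter, as given above.

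Within the macrophages, the members were compared between subsets named by their markers. These were C1q Mrc1, Arg1 Spp1 and MHC-II macrophages, osteoclasts, dividing macrophages and, as the reference, inflammatory monocytes (Ly6c2, Ccr2 and Plac8). Such monocytes are known to enter wounds from blood, but the origin of these cells was not tested. In mean level the monocytes were the lowest of the 6 subsets for 5 members, Abca1, Lpl, Fabp5, Cd36 and Gpnmb. In C1q Mrc1 macrophages, 10 of 10 members were higher than in monocytes (32.7% of all genes tested were), with a median log2 fold change of 3.31 against 0.03 over all genes. In Arg1 Spp1 macrophages, 10 of 10 were higher (30.5%), with a median of 2.31 against 0.02. In MHC-II macrophages, 9 of 10 were higher (25.9%), with a median of 2.11 against 0.02, and Fabp4 was the other at adjusted p = 0.27. Dividing macrophages had 5 higher (37.8%) and 2 lower (38.8%), with a median of 0.36 against -0.03. Osteoclasts had 5 higher (36.8%) and 3 lower (37.1%), with a median of 0.31 against 0.01. Gpnmb did not pass the filter on low counts in the genotype fit of monocytes, where 9 members were tested. It entered these comparisons only through the other subset, so its direction was fixed in advance.

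**Figure D2:**
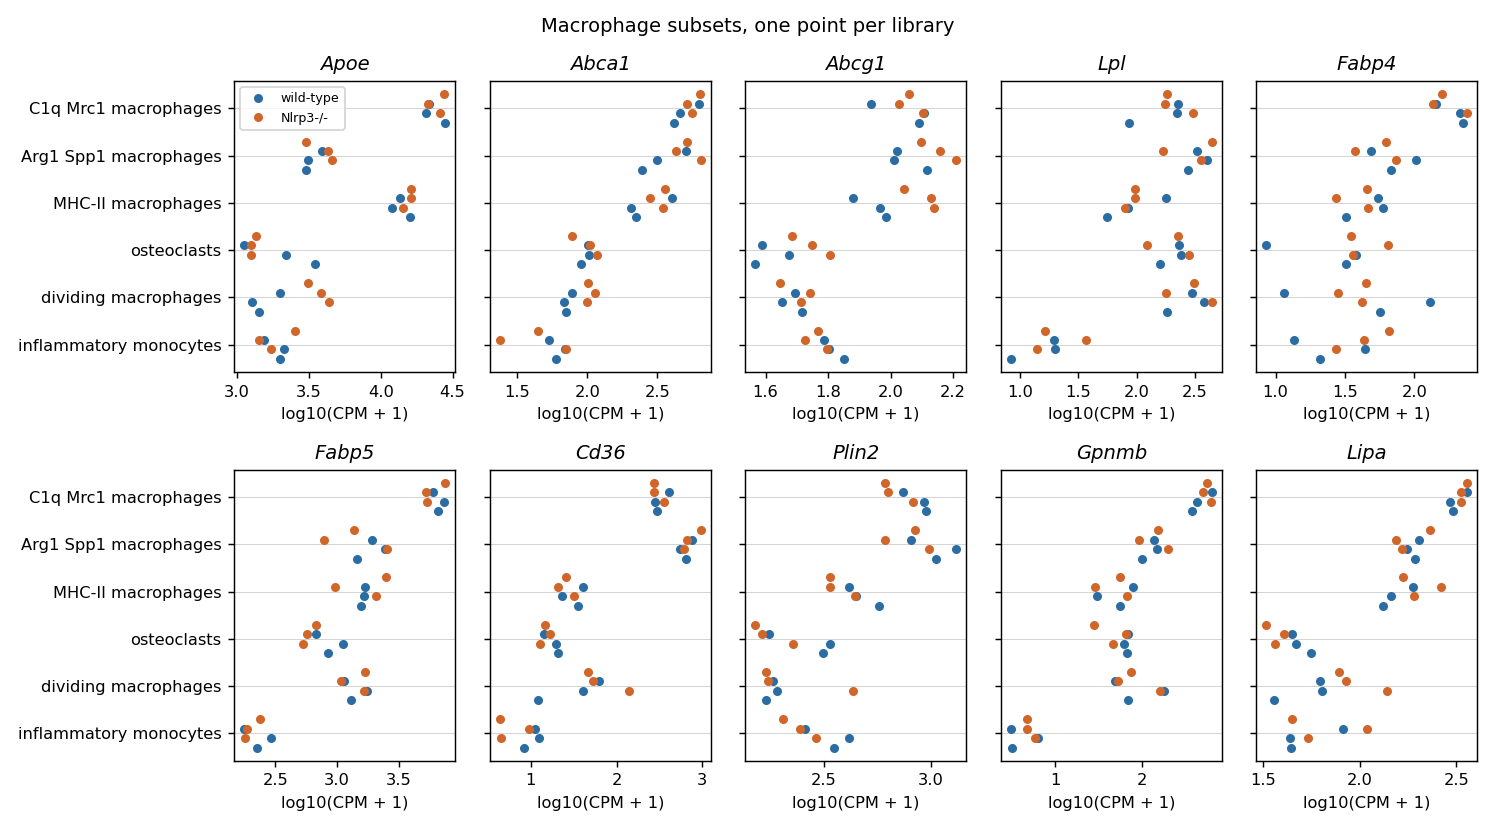
Level of each lipid handling gene (x axis, log10 of CPM + 1) in 6 macrophage subsets (y axis), with a point for each wild-type library (blue) and each Nlrp3-/- library (orange). Gpnmb lies at 2.09 to 5.38 CPM in inflammatory monocytes and at 383 to 643 CPM in C1q Mrc1 macrophages, and Cd36 is highest in Arg1 Spp1 macrophages.

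Apoe, Fabp4, Fabp5, Gpnmb and Lipa were highest in the C1q Mrc1 macrophages, the subset with complement C1q and the mannose receptor, where none of their ranges overlapped with those of the other 5 subsets tested. Apoe had a lowest, median and highest library of 20625, 23850 and 28073 CPM there, 11945, 15102 and 16313 CPM in MHC-II macrophages and 1431, 1856 and 2537 CPM in monocytes. These 3 ranges did not overlap, and the log2 fold change of C1q Mrc1 macrophages over monocytes was 3.62 (SE 0.08, adjusted p = 1.56e-13). Thinned to 1000 UMIs, 96.0% of C1q Mrc1 macrophages and 54.0% of monocytes held an Apoe UMI. Gpnmb had the largest log2 difference of the 10, in a direction fixed by the filter, as given above. It went from 2.09, 3.78 and 5.38 CPM in monocytes to 383, 532 and 643 CPM in C1q Mrc1 macrophages, a log2 fold change of 7.07 (SE 0.15, adjusted p = 4.54e-14). Its thinned share was 23.4% of C1q Mrc1 macrophages, 0.365% of monocytes and 0.231% of B cells, and the monocyte share is read as background. Lipa was higher too, at 292, 332 and 360 CPM against 42.7, 48.5 and 108 CPM in monocytes (log2 2.40, SE 0.14, adjusted p = 2.1e-09), and Fabp5 was at 5255, 6327 and 7567 CPM against 175, 203 and 292 CPM (log2 4.82, SE 0.07, adjusted p = 1e-15). Fabp4 was also highest there, at 136 to 241 CPM, above every library of the other subsets.

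Receptor and storage genes had another order. Cd36 was highest in Arg1 Spp1 macrophages, which express arginase and osteopontin, at 544, 651 and 956 CPM (lowest, median and highest library), above 270, 285 and 407 CPM in C1q Mrc1 macrophages and 3.36, 8.01 and 11.4 CPM in monocytes. The ranges did not overlap, and the log2 fold change over monocytes was 6.46 (SE 0.20, adjusted p = 3.07e-12). In MHC-II macrophages Cd36 was at 20.03 to 39.8 CPM, so that this subset combined high Apoe with little Cd36. Plin2 was at 609 to 1311 CPM in Arg1 Spp1 and 610 to 946 CPM in C1q Mrc1 macrophages, which overlapped, and at 204 to 414 CPM in monocytes (log2 1.67, SE 0.08, adjusted p = 3.22e-10 for Arg1 Spp1 macrophages). Lpl was at 168 to 439 CPM in Arg1 Spp1 and 177 to 441 CPM in dividing macrophages, overlapping with osteoclasts and C1q Mrc1 macrophages and above monocytes at 7.37 to 36.2 CPM. Abca1 stood at 533 ± 89.9, 442 ± 146 and 302 ± 79.6 CPM in C1q Mrc1, Arg1 Spp1 and MHC-II macrophages, whose neighbours overlapped, and 52.4 ± 17.6 in monocytes. Abcg1 was at 107 to 127 CPM as the means of these 3 subsets and 47.6 to 60.6 CPM as those of the others.

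Osteoclasts and dividing macrophages had some members above and some below monocytes, and the shares given above for all genes leave little to read from their counts. In osteoclasts, the bone-resorbing relatives of macrophages, Lpl (log2 3.42, SE 0.24), Gpnmb (3.86, SE 0.21), Fabp5 (1.62, SE 0.08), Cd36 (0.94, SE 0.19) and Abca1 (0.78, SE 0.16) exceeded monocytes. Plin2 (-0.52, SE 0.07), Abcg1 (-0.51, SE 0.13) and Lipa (-0.60, SE 0.18) were lower than in monocytes. In dividing macrophages Lpl (3.79, SE 0.23), Gpnmb (4.46, SE 0.16), Fabp5 (2.49, SE 0.09), Cd36 (2.41, SE 0.32) and Abca1 (0.50, SE 0.20) were higher and Abcg1 (-0.57, SE 0.10) and Plin2 (-0.72, SE 0.16) lower. The call for Abca1 in dividing macrophages did not hold in the wild-type libraries alone (0.02, adjusted p = 0.89), nor that for Lipa in osteoclasts (-0.24, adjusted p = 0.363). Without the library block, the calls ended for Abca1 in dividing macrophages (0.47, adjusted p = 0.0645) and Plin2 in osteoclasts (-0.49, 0.105), as did that for Plin2 in MHC-II macrophages (0.47, 0.0713). Leaving out wild-type replicate 3 (0.54, adjusted p = 0.0516), Nlrp3-/- replicate 2 (0.25, 0.119) or Nlrp3-/- replicate 3 (0.41, 0.117) ended the call for Abca1 in dividing macrophages, and leaving out Nlrp3-/- replicate 2 that for Lipa in osteoclasts (-0.37, 0.061). Apoe was lower in osteoclasts without wild-type replicate 1 (-0.52, adjusted p = 0.000671), and Fabp4 passed in MHC-II macrophages without Nlrp3-/- replicate 3 (0.56, 0.0478). In the wild-type libraries alone, Fabp4 passed in MHC-II macrophages (0.78, adjusted p = 0.0165) and in dividing macrophages (1.05, 0.00261), and Apoe was lower in dividing macrophages (-0.51, 0.0143), where all libraries gave 0.13 (adjusted p = 0.605). Of the subsets, dividing macrophages came nearest to osteoclasts in the 8 osteoclast markers, which summed to 2517 to 4554 CPM there, 8027 to 18073 CPM in osteoclasts and 70.6 to 614 CPM in the libraries of the other 4 tested. How many dividing cells belong to the osteoclast lineage was not tested, so their levels and their genotype difference may be those of a mixed subset.

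Il1b inflammatory macrophages held at least 20 cells in only 3 libraries (48 and 98 cells in wild-type replicates 2 and 3 and 304 in Nlrp3-/- replicate 1) and were not tested. Plin2 was at 1709, 1116 and 1225 CPM in these 3, Abca1 at 463, 907 and 882 CPM and Apoe at 523, 564 and 931 CPM. High Plin2 and Abca1 thus stood beside an Apoe level below that of every library of the monocytes.

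The other genes of the pathway, in lists also chosen with earlier results of these data known, were counted in the same comparisons. Of 21 genes of lysosomal lipid breakdown and its regulators, 21 were higher in macrophages than in endothelial cells, and 16 were higher and 1 (Tfeb) lower in C1q Mrc1 macrophages than in monocytes, with median log2 fold changes of 2.23 and 1.15 against 0.02 and 0.03 over all genes. Of all genes tested, 38.2% were higher in macrophages than in endothelial cells, and 32.7% were higher and 32.2% lower in C1q Mrc1 macrophages than in monocytes. The protease Ctsd, for example, was at 5230 CPM in C1q Mrc1 macrophages and 392 CPM in monocytes. Of 9 lipid-associated macrophage partners, 8 were higher and 1 (Tyrobp) lower in C1q Mrc1 macrophages and likewise in Arg1 Spp1 macrophages, with medians of 3.29 and 3.11, and 30.5% of all genes were higher and 29.6% lower in the latter. Syngr1 led in the former (377 against 1.65 CPM) and the elastase Mmp12 in the latter (513 against 1.15 CPM). Among 13 sterol efflux genes and LXR targets, 6 were higher and 5 lower in C1q Mrc1 macrophages, with a median of 0.19. Nr1h3, which encodes LXRα, was at 73.8 against 2.79 CPM and the phospholipid transfer protein Pltp at 669 against 33.8 CPM, while Smpdl3a was at 196 against 471 CPM and Apoc1 at 7.13 against 25.2 CPM.

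Storage, uptake and oxidation genes gave mixed counts in the same comparison of C1q Mrc1 macrophages with monocytes, where 32.7% of all genes were higher and 32.2% lower. Of 17 genes of droplet storage and lipolysis, 14 were tested, 5 higher (Nceh1 at 160 against 40.7 CPM) and 4 lower (Dgat2 at 6.74 against 29.9 CPM). Of 11 uptake receptors, 9 were tested, 6 higher, led by Stab1 at 415 against 10.3 CPM, and 2 lower, with Scarb1 at 29.8 against 64.4 CPM. Of 15 PPAR and fatty acid oxidation genes, 13 were tested, 6 higher and 2 lower, with Ppard at 12.9 against 27.9 CPM. Of 14 genes of unsaturated fatty acid synthesis, 11 were tested, 6 higher and 3 lower. Of 6 lipoprotein lipase partners, 5 were tested, 3 higher and 1 lower. Gpihbp1, which anchors lipoprotein lipase to capillaries, was at 378 CPM in endothelial cells and 0.628 CPM in macrophages.

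By the rule of likeness, Pearson correlation of log2(CPM + 1) over 108 pairs of library and cell type or macrophage subset, the most similar genes were C1qb for Apoe (0.890), Lgmn for Abca1 (0.894) and Lipa (0.877), Ms4a7 for Gpnmb (0.893) and Hmox1 for Plin2 (0.928). Il2rg was nearest to Abcg1 (0.869), Slc6a8 to Lpl (0.849), Vps29 to Fabp5 (0.854) and Glul to Cd36 (0.788). The gene most similar to Fabp4 was Col15a1 (0.882), a basement membrane collagen. Correlations of Fabp4 with the other members ran from -0.01 with Apoe to 0.48 with Cd36, with 0.39 for Fabp5. Fabp5 and Lipa correlated at 0.85 and Apoe and Gpnmb at 0.81. The points share libraries and depth, and the values are a description only.

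Between the genotypes, none of the 10 members passed the test in macrophages. The edgeR test called 61 of 12902 genes (0.473%), and neither it nor DESeq2 called a member. At an unadjusted p below 0.05, 0 of 10 members stood against 19.9% of all genes. The median log2 fold change of the members, Nlrp3-/- minus wild-type, was 0.13 against 0.01 over all genes, and a plain CPM ratio is 0.16 higher on the log2 scale than the TMM-scaled values given here. In the 9 pathway lists edgeR also called 0 genes, with between 0 and 4 genes a list at an unadjusted p below 0.05.

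**Figure D3:**
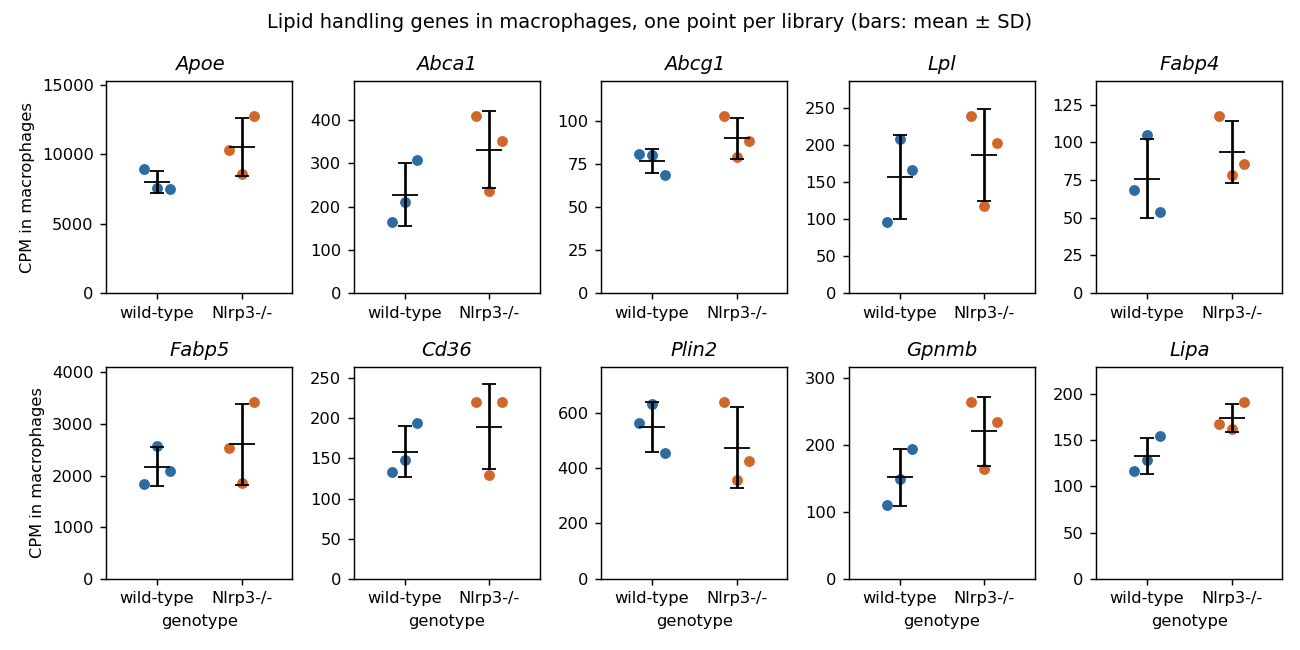
CPM of each lipid handling gene in macrophages (y axes, each starting at 0) for the 3 wild-type and the 3 Nlrp3-/- libraries (x axes), with a point for each library and black bars for the mean ± SD. The genotypes overlap for every gene but Lipa, which is at 117, 129 and 155 CPM in the wild-type libraries and 168, 163 and 192 CPM in the Nlrp3-/- libraries.

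Apoe was at 8931, 7546 and 7516 CPM in the wild-type libraries and 10302, 8598 and 12742 CPM in the Nlrp3-/- libraries (log2 fold change 0.24, SE 0.19, adjusted p = 0.497). Abca1 was at 165, 212 and 307 against 409, 235 and 352 CPM (0.41, SE 0.26, adjusted p = 0.392), and Gpnmb at 110, 150 and 195 against 265, 164 and 234 CPM (0.40, SE 0.23, adjusted p = 0.349). In each of the 3, Nlrp3-/- replicate 2 lay within the wild-type range. Lipa did not overlap, at 117, 129 and 155 against 168, 163 and 192 CPM (0.23, SE 0.12, adjusted p = 0.317), and it was the 1 member of 10 without overlap where 25.7% of all genes had none. Plin2 had the only estimate below 0, with 563, 632 and 453 against 638, 358 and 425 CPM (-0.37, SE 0.25, adjusted p = 0.426). The other estimates were 0.07 for Abcg1, 0.11 for Lpl, 0.14 for Fabp4, 0.11 for Fabp5 and 0.12 for Cd36, with SEs of 0.16 to 0.33. Beside these values, the C1q Mrc1 subset made up 14.3%, 18.6% and 21.6% of wild-type and 22.1%, 23.6% and 35.2% of Nlrp3-/- macrophages, and 9 neutrophil markers summed to 1689 to 3843 and 1285 to 2618 CPM in the macrophages of wild-type and Nlrp3-/- libraries. In the same macrophages 8 mesenchymal markers summed to 284 to 572 against 574 to 1142 CPM and 7 pericyte markers to 29.5 to 37.3 against 44.9 to 56.2 CPM, neither range overlapping and no marker at 0. Their part in these values was not tested. Without wild-type replicate 3, 2625 genes passed but still no member, and without both that library and Nlrp3-/- replicate 1, 2649 genes passed, Plin2 among them (-0.84, adjusted p = 0.0126).

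Within the subsets, Apoe in dividing macrophages was the 1 member to pass. It was at 1425, 1275 and 1998 CPM in the wild-type libraries and 4368, 3844 and 3139 CPM in the Nlrp3-/- libraries, which did not overlap, and its log2 fold change was 1.13 (SE 0.18, adjusted p = 0.0111). In that subset 2.36% of all genes passed, and DESeq2 called the same 1 member. Leaving out wild-type replicate 1 ended the call (1.10, adjusted p = 0.0843), as did leaving out the second of these libraries (1.02, with an adjusted p of 0.0844), and without wild-type replicate 3, when 1382 genes passed in place of 205, Fabp4 passed beside Apoe (-1.52, adjusted p = 0.00519). Abca1 (0.38, adjusted p = 0.14) and Lipa (0.73, adjusted p = 0.121) did not overlap between the genotypes either, so that 3 of 10 members did not, where 25.8% of all genes did not. The subset held 85, 123 and 82 wild-type and 162, 116 and 200 Nlrp3-/- cells. Marker sums are given beside it in plain CPM, whose ratio here is 0.158 higher on the log2 scale than the TMM-scaled value. The neutrophil, mesenchymal and osteoclast sums below overlapped between the genotypes, and the other sums did not. The 8 macrophage markers summed to 4049 to 5932 against 8621 to 10278 CPM (7 of 8 higher in mean). The 11 C1q Mrc1 markers summed to 1505 to 2167 against 3026 to 3549 CPM (11 of 11 higher in mean). For the 9 neutrophil markers the sums were 524 to 2764 against 232 to 773 CPM (0 of 9). The 7 inflammatory monocyte markers summed to 178 to 236 against 398 to 504 CPM, though only 3 of 7 were higher in mean. For the 6 Arg1 Spp1 markers the sums were 877 to 1794 against 2037 to 3228 CPM (5 of 6). For the 7 pericyte markers they were 26.6 to 52.3 against 59.4 to 79.6 CPM (6 of 7). The 8 mesenchymal markers were at 232 to 424 against 348 to 1058 CPM (8 of 8 higher in mean). Osteoclast markers were at 3862 to 4554 against 2517 to 4340 CPM (1 of 8). The subset's own 7 markers were at 1829 to 2146 against 2206 to 2263 CPM (6 of 7 higher in mean). Plasmacytoid dendritic cell markers were at 312 to 370 against 399 to 443 CPM (4 of 6). Their part in the Apoe difference was not tested.

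Osteoclasts had 0 members past the threshold by edgeR (0.85% of genes passed there) and 2 by DESeq2, Fabp5 (-0.76, adjusted p = 0.0115) and Plin2 (-0.80, adjusted p = 0.0405), among 356 genes where edgeR called 83. At an unadjusted p below 0.05 stood 6 of 10 members, where 19.8% of all genes did, and all 6 had estimates below 0. They were Apoe (-1.01, SE 0.33), Plin2 (-0.79, SE 0.26), Fabp5 (-0.74, SE 0.20), Gpnmb (-0.69, SE 0.25), Lipa (-0.61, SE 0.16) and Cd36 (-0.49, SE 0.22). Apoe was at 3488, 2174 and 1119 CPM in the wild-type libraries, so that the lowest of them lay below the Nlrp3-/- libraries at 1248, 1240 and 1342 CPM. Lipa alone of the 6 did not overlap, at 54.9, 45.8 and 43.5 against 35.4, 39.7 and 32.0 CPM, and with Abcg1 (0.28) 2 of 10 members did not, where 23.9% of all genes did not. Without wild-type replicate 3, 2116 genes passed, in place of 83 of 9769 with all libraries. Among them were 5 members: Apoe, Fabp5, Cd36, Plin2 and Lipa. Beside this, the 8 osteoclast markers summed to 8027 to 14866 CPM in wild-type and 16784 to 18073 CPM in Nlrp3-/- osteoclasts (8 of 8 higher in mean). The 11 C1q Mrc1 markers summed to 665 to 2110 against 555 to 612 CPM (3 of 11). The 7 dividing markers summed to 42.8 to 68.2 against 81.5 to 112 CPM (7 of 7 higher in mean), the 8 hematopoietic progenitor markers to 25.1 to 40.4 against 47.8 to 157 CPM (8 of 8) and the 8 mesenchymal markers to 203 to 413 against 397 to 988 CPM (8 of 8). The summed plasmacytoid dendritic cell markers were lower, at 313 to 447 against 268 to 305 CPM, though 3 of 6 were higher in mean. Schwann cell markers summed higher, at 25.3 to 29.1 against 34.1 to 50.3 CPM (4 of 6). Their part was not tested.

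In the other 4 subsets, 0 members passed by edgeR and 0 by DESeq2, where 0.437% of genes passed in C1q Mrc1, 0.478% in Arg1 Spp1 and 0.752% in MHC-II macrophages and 0.558% in inflammatory monocytes. An unadjusted p below 0.05 was reached in 6 of 39 member tests, against 15.2% of all tests in these subsets. Of the 6, 3 were Plin2, with estimates of -0.46 in C1q Mrc1 macrophages (SE 0.18, adjusted p = 0.249), -0.46 in MHC-II macrophages (SE 0.19, 0.242) and -0.61 in monocytes (SE 0.21, 0.231). The estimate was -0.47 in Arg1 Spp1 macrophages. In C1q Mrc1 macrophages Plin2 was at 946, 932 and 740 CPM in the wild-type and 827, 632 and 610 CPM in the Nlrp3-/- libraries, which overlapped. Without wild-type replicate 3 Plin2 passed in C1q Mrc1 macrophages (-0.60, adjusted p = 0.0277), MHC-II macrophages (-0.60, 0.0274) and monocytes (-0.81, 0.0147), when 1525, 1071 and 975 genes passed in these subsets in place of 45, 62 and 50. The same omission brought Abca1 past in Arg1 Spp1 macrophages (0.53 with all libraries, 0.81 without, adjusted p = 0.0295, with 689 genes past in place of 41) and in MHC-II macrophages (0.49, adjusted p = 0.0448). Cd36 in monocytes (-1.04) and Abcg1 in MHC-II macrophages (0.41) completed the 6. Markers moved beside these values as well. In monocytes the 9 neutrophil markers summed to 4110 to 5350 CPM in wild-type and 2076 to 2760 CPM in Nlrp3-/- libraries. Of these 9, 4 were higher in mean in Nlrp3-/- libraries. The 11 C1q Mrc1 markers summed to 892 to 953 against 985 to 1188 CPM there (8 of 11 higher in mean). For the 7 pericyte markers the sums were 30.9 to 32.3 against 33.2 to 43.7 CPM (5 of 7). The 8 macrophage markers summed to 17380 to 20894 against 21259 to 23721 CPM in monocytes (3 of 8 higher in mean). In C1q Mrc1 macrophages they summed to 27035 to 31267 against 32212 to 38069 CPM (5 of 8). In Arg1 Spp1 macrophages they summed to 21182 to 22371 against 22774 to 28623 CPM (4 of 8). In MHC-II macrophages the sums were 21423 to 21624 against 22665 to 27214 CPM (4 of 8). Il1b inflammatory macrophages were the subset with the highest mean of Plin2. Their 7 markers summed to 2241 to 2715 against 1373 to 2079 CPM in C1q Mrc1 macrophages, though 3 of 7 were higher in mean. The 7 pericyte markers summed to 32.5 to 44.4 against 50.7 to 63.5 CPM there (6 of 7). In MHC-II macrophages the 7 monocyte markers summed to 829 to 869 against 1184 to 1264 CPM, though only 3 of 7 were higher in mean. The summed pericyte (4 of 7) and plasmacytoid dendritic cell markers (4 of 6) there were also higher in every Nlrp3-/- library. In Arg1 Spp1 macrophages their own 6 markers summed to 11222 to 18721 against 19153 to 28738 CPM (6 of 6). None of these pairs of ranges overlapped, and their part was not tested.

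**Figure D4:**
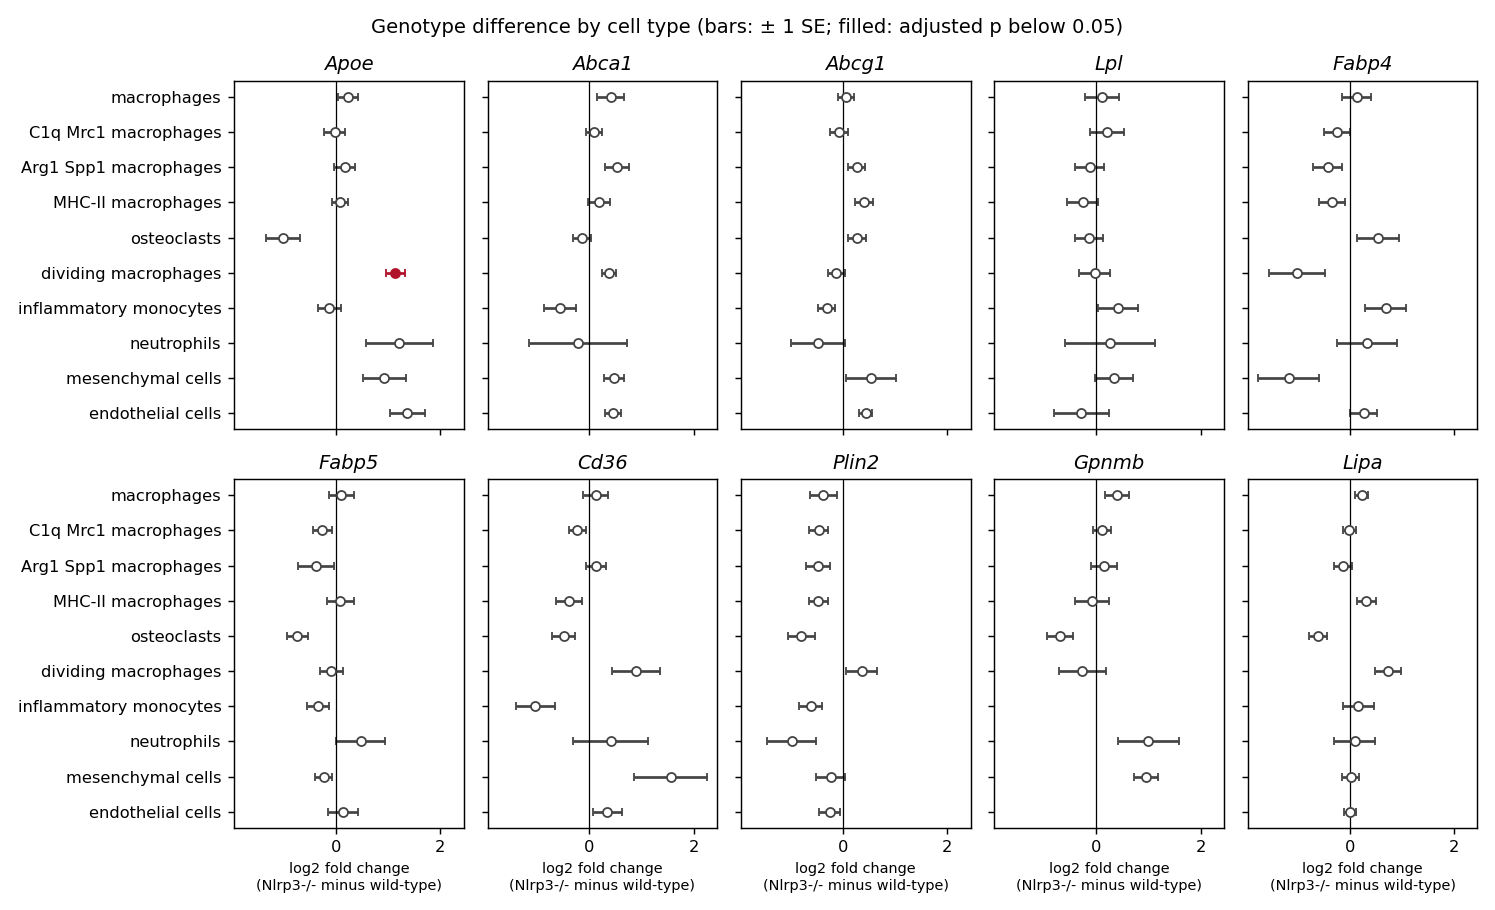
Log2 fold change of each lipid handling gene, Nlrp3-/- minus wild-type (x axis, ± 1 SE), in macrophages, their subsets and 3 other cell types (y axis), from the edgeR fit of each type, with a filled red point where adjusted p is below 0.05. The filled point is Apoe in dividing macrophages at 1.13, and Plin2 lies below 0 in macrophages and 5 of 6 subsets.

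Outside the macrophages, 0 members passed in any of the 10 other cell types by edgeR. The genes passed were 0.121% of those tested in mesenchymal cells, 0.185% in pericytes and smooth muscle cells, 0.296% in B cells, 0.331% in plasmacytoid dendritic cells and 0.356% in neutrophils. They were 0.42% in mast cells and basophils, 0.468% in T and NK cells, 0.473% in endothelial cells, 0.573% in hematopoietic progenitors and 1.37% in conventional dendritic cells. An unadjusted p below 0.05 was reached in 15 of 85 member tests (13 estimates above 0 and 2 below), against 14.9% of all tests in these types. DESeq2 called 3 members, each in 1 type: Lpl in pericytes and smooth muscle cells (0.89, adjusted p = 0.00673), Plin2 in hematopoietic progenitors (-0.85, 0.000796) and Gpnmb in mesenchymal cells (0.93, 0.0488), among 135, 372 and 267 genes where edgeR called 18, 64 and 18. Without wild-type replicate 3, Lipa (0.55, adjusted p = 0.0446) and Plin2 (-0.60, 0.0322) passed in conventional dendritic cells, where 1254 genes did in place of 107, and Plin2 (-1.01, 0.0071) in hematopoietic progenitors, where 1636 did in place of 64. Apoe passed in progenitors without Nlrp3-/- replicate 2 (2.07, adjusted p = 0.0425). In endothelial cells, which meet circulating lipoproteins, Apoe was at 92.2, 138 and 61.8 against 412, 212 and 218 CPM (1.36, SE 0.33, adjusted p = 0.0968). Abca1 was at 141, 163 and 216 against 274, 233 and 269 CPM (0.45, SE 0.16, adjusted p = 0.162), and Abcg1 at 52.4, 47.5 and 46.2 against 75.6, 73.7 and 70.4 CPM (0.44, SE 0.13, adjusted p = 0.129). The genotypes did not overlap for these 3 of 9 members tested, where 24.0% of all genes did not overlap. All 3 passed without wild-type replicate 3 (1.09, 0.58 and 0.36, with adjusted p of 0.0359, 0.0182 and 0.0438). In that setting 2568 genes passed, in place of 53 of 11199 with all libraries. With the replicate number as a block, Apoe passed (1.38, adjusted p = 0.0334) among 95 genes. Free Apoe RNA stood at 3620, 3167 and 2160 against 5958, 1995 and 5713 CPM in the same libraries, and the hemoglobin counts put free RNA at 0.822% to 72.4% of endothelial UMIs. A share of 72.4% of any of these pools would exceed the endothelial Apoe level of every library. The hemoglobin counts thus set no usable bound for this type, and the part of free RNA was not tested.

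Whether the genotype difference itself differed between macrophages and another type was tested as an interaction. No member passed against mesenchymal cells (0.0% of genes did), neutrophils (0.022%) or endothelial cells (0.0712%) by edgeR, the only tool run for it. At an unadjusted p below 0.05 stood 2 members against mesenchymal cells (Fabp4 at 1.33 and Gpnmb at -0.56), 1 against neutrophils (Plin2 at 0.63) and 3 against endothelial cells (Apoe at -1.19, Abcg1 at -0.44 and Gpnmb at -1.94). Of all genes, 9.36%, 9.03% and 13.5% stood there in the same order. Gpnmb was too low in endothelial cells to pass the filter there and entered that interaction only through macrophages. Its value of -1.94 (SE 0.80) therefore rests on a very low endothelial level. Plin2 had an estimate below 0 in 10 of 11 cell types and in 5 of 6 subsets, between -0.98 and 0.36. Those in B cells (-0.0019, SE 0.20) and in pericytes and smooth muscle cells (-0.0031, SE 0.27) were too near 0 to give a direction. Apoe had an estimate above 0 in 10 of 11 cell types, from -0.06 to 2.13, but in only 3 of 6 subsets. The remaining members had estimates of both signs in the subsets. All these estimates come from the same 6 libraries, and the subsets are part of the macrophages, so their signs are not independent.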

How the data were processed

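Dissociated cells of the rotator cuff enthesis were profiled by droplet single-cell RNA sequencing in 6 libraries. The authors deposited raw UMI counts per gene and barcode. The submitters' processing notes name Cell Ranger 2.1.1 and mm10, while the matrix headers name Cell Ranger 4. All barcodes were deposited, so cells were called again: 102465 barcodes with at least 500 UMIs were compared with the free RNA (false discovery rate 0.01, 10000 simulations), leaving 97864. At least 200 genes and at most 10% mitochondrial UMIs left 94336. Scrublet scores removed 13305 doublets, at 0.8% per 1000 cells (its automatic limit marked 8536). Shallow clusters held mostly by 1 library (10517 cells, of which 10153 in Nlrp3-/- replicate 1) were set aside, leaving 70514. Clusters came from scanpy 1.11.5 and leidenalg 0.10.2 (Python 3.11.15) with 2000 variable genes, 30 components, 15 neighbours and resolution 1.0, made without the members, the 124 pathway genes, Nlrp3 and sex-linked genes, and were named from marker lists. These names were rebuilt here and may differ from those of the study.

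UMIs were summed per library and cell type with at least 20 cells, and CPM were computed from the sums. The edgeR quasi-likelihood test (4.0.16, R 4.3.3) was fitted over all genes kept by its filter on low counts, with TMM scaling and Benjamini-Hochberg adjustment, with the library as a block between cell types. Alternatives were DESeq2 1.42.0, RLE size factors, other cell filters, a replicate block and leaving out each library. Tests were checked on simulated counts with 200 changed genes. Members are the 10 genes named by symbol, and pathway genes named are those with the largest changes past the threshold and at least 20 CPM. Members and lists were chosen with earlier results of these data known. Same-numbered libraries did not deviate together (correlations -0.13, -0.26 and -0.16 for replicates 1 to 3), and the main tests did not pair them. With 3 libraries per genotype, these correlations cannot settle whether a number stands for a shared preparation, which the labels do not say. Thinning to 1000 UMIs left out 1416 macrophages and 277 B cells. No column of per-sample values was left unused. The values of 1 pathway list, on sterol synthesis, are not reported here.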

Additional observations from a re-analysis of the deposited data

Results flagged for a closer look

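Across 11 cell types and 6 macrophage subsets tested, Lipa, the lysosomal acid lipase gene, had genotypes that did not overlap in 6, in opposite directions. Overlap was read from CPM, and in these 6 a plain CPM ratio is 0.12 to 0.20 higher on the log2 scale than the TMM-scaled values here. The log2 fold change, Nlrp3-/- minus wild-type, was 0.45 in conventional dendritic cells, 0.21 in hematopoietic progenitors, 0.23 in macrophages, 0.085 in pericytes and smooth muscle cells and 0.73 in dividing macrophages, where every Nlrp3-/- library lay above every wild-type library. In osteoclasts it was -0.61, with every Nlrp3-/- library below. Of all genes, 26.8%, 26.6%, 25.7%, 19.1%, 25.8% and 23.9% did not overlap in these types and subsets, in the same order. The difference between these types was not tested and none of the values passed the threshold by edgeR with all libraries, while without wild-type replicate 3 Lipa passed in conventional dendritic cells (0.55, adjusted p = 0.0446) and osteoclasts (-0.71, adjusted p = 0.00552), and genotype cannot be told apart from sex here.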

How the results depend on the processing

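Of 1606 alternative values for 169 results, 1515 kept their direction and side of the threshold, 26 came newly past it, 16 lost it, 28 counts moved and 21 estimates turned sign. The cause was not tested. In macrophages, the number of genes past the threshold between genotypes went from 61 to 406 with no filter on low counts, 610 by DESeq2, 35 with the replicate number as a block and 2649 with both wild-type 3 and Nlrp3-/- 1 left out (chosen after seeing the data), which called 1 member. Leaving out 1 library gave 26 to 2625 genes, the highest without wild-type replicate 3. Leaving out 1 library gave 0 to 1 members in Arg1 Spp1 and C1q Mrc1 macrophages, monocytes and progenitors. The count was 0 to 2 in dividing and MHC-II macrophages and conventional dendritic cells, 0 to 3 in endothelial cells and 0 to 5 in osteoclasts. Each of these upper ends was reached without wild-type replicate 3, when many more genes passed in the same cells, as given above. In the interaction with neutrophils the count was 0 to 1 (Abcg1, without Nlrp3-/- replicate 1). DESeq2 called 2 in osteoclasts and 1 each in progenitors, mesenchymal cells and pericytes. The replicate block called 1 member in endothelial cells (Apoe) and changed no other member call in 17 comparisons. With both libraries left out, Abcg1 (-0.18), Lpl (-0.14) and Fabp4 (-0.32) turned sign in macrophages, and leaving out 1 gave -0.067 to 0.18, -0.14 to 0.40 and -0.090 to 0.46, with -0.14 to 0.32 for Fabp5 and -0.032 to 0.36 for Cd36. Against monocytes, the wild-type libraries alone gave -0.26 for Lipa and, both newly past the threshold, -0.51 for Apoe and 1.05 for Fabp4 in dividing macrophages and 0.023 for Apoe in osteoclasts. Leaving out 1 library there gave -0.085 to 0.35 for Apoe, -0.12 to 0.53 for Fabp4 and -0.16 to 0.18 for Lipa in dividing macrophages, and -0.28 to 0.087 for Fabp4 in osteoclasts. Without the library block, Plin2 did not pass in macrophages against neutrophils (0.62, adjusted p = 0.112), nor Fabp4 (0.27, 0.487).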
